A study of Mus musculus with 2 samples.

Results

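The connexin genes Gja1, Gjb6, Gjb1, Gjc1, Gjc3 and Gjd2 and the pannexin genes Panx1 and Panx2 were followed across the cell classes of the mouse hippocampus. These 8 members, out of 32285 genes listed, were chosen by name, and their UMIs (molecules counted once each) were summed per class and library. Nuclear RNA was profiled in 2 libraries, 1 male and 1 female, from the hippocampus of 3-month-old mice of the genotype Stra8L/-; Nestin-Cre, a conditional deletion of Stra8 that both groups carry. Nestin-Cre is known to drive recombination in progenitor cells of the nervous system, from which neurons, astrocytes and oligodendrocytes descend. No library of another genotype was analysed here, so the comparison the design allows is male against female. The number of animals behind each library is not given in the sources used here. Sex cannot be told apart from the animals, the dissection or the library itself. With 1 library a group, no test was run, and every interval given is a 95% interval of counting error only.

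Connexins assemble into hemichannels that dock between neighbouring cells and form gap junctions, through which ions and small metabolites pass. In the forebrain, astrocytes are coupled chiefly through the products of Gja1 (Cx43) and Gjb6 (Cx30), oligodendrocytes carry those of Gjb1 (Cx32) and Gjc3 (Cx29), and electrical synapses between interneurons are built of the Gjd2 product (Cx36). Gjc1 (Cx45) is known from the vessel wall and from some neurons. Pannexins form large channels in a single membrane, and Panx1 is known as a route for ATP release.

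Promoter windows are shown for the pairs of members that share a main class below: Gja1 and Gjb6 in astrocytes, and Gjc3 and Gjb1 in oligodendrocytes. They come from RefSeq (GRCm38.p6) and run from 250 bases before to 50 bases after an annotated start, 5′ to 3′ on the gene's strand. Capitals mark matches to any of the 4 motifs searched on both strands, which were the AP-1 element TGAGTCA, the GC box with the letters GGGCGG, the TATA box searched as TATAAA, and the cAMP response element, whose letters are TGACGTCA. The windows lie at chr10:56377050-56377349 (plus strand) for Gja1, chr14:57133562-57133861 (minus) for Gjb6, chr5:137963049-137963348 (minus) for Gjc3 and chrX:101383482-101383781 (plus) for the fourth of 4 annotated Gjb1 starts.
Gja1: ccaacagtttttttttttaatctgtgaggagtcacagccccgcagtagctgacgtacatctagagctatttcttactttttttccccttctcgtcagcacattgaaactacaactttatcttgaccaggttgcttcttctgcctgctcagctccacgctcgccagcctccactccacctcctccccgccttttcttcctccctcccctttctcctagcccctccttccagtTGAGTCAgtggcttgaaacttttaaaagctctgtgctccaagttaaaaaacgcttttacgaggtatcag
Gjb6: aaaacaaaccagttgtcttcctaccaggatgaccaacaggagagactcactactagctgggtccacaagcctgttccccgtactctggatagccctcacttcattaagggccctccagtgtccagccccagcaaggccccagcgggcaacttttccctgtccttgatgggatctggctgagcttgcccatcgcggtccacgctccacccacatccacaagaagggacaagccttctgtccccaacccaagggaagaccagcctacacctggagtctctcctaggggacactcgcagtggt
Gjc3: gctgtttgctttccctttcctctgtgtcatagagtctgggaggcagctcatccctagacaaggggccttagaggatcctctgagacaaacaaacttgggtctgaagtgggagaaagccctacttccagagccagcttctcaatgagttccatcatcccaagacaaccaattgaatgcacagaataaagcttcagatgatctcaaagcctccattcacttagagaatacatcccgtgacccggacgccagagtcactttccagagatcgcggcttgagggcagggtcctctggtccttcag
Gjb1: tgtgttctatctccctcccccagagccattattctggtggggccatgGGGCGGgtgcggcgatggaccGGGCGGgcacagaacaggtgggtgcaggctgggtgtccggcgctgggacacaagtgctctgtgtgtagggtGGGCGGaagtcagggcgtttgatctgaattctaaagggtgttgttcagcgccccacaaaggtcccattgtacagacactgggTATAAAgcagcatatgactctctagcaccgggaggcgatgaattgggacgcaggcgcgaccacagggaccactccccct
The Gja1 window held 1 AP-1 match, at position -19 from the start, a motif found in 5.20% of 32851 windows of this length. The Gjb6 and Gjc3 windows held none of the 4 motifs. The Gjb1 window held 3 GC boxes, a motif in 35.7% of windows, and 1 TATAAA, a motif in 13.6%, and the windows of its other 3 starts held none of the 4. The Gjd2 window was the richest in G and C of the 6 members with a window, at 75% against a median of 52.7% over all windows, and held 1 GC box. A match is a description of the letters, and its absence says only that they are not in this window.

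Total depth was 103262825 UMIs in 16174 male barcodes and 108286856 UMIs in 20150 female barcodes, and 101 barcode sequences occurred in both. Filtering for genes, mitochondrial share and doublets left 13793 male and 17023 female nuclei, with median depths of 4318 and 2656 UMIs. Nuclei were clustered with every connexin and pannexin gene left out, and clusters were named from 8 markers per type, so each class name stands for a resemblance to that type. The class called subiculum in the text and figures was named for subicular and entorhinal neurons together. All 8 astrocyte markers were detected in the astrocyte class of both libraries, and so were all 8 oligodendrocyte markers in the oligodendrocyte class. These markers also named the classes and were detected in most other classes too, so their detection does not test the names. Unnamed clusters held 763 male and 4918 female nuclei and entered no class, so the female classes miss a larger share of the nuclei (28.9% against 5.53%). The targeted gene Stra8 had 3 UMIs over all male and 6 over all female barcodes. The deleted part of the gene is not given in the sources used here, and the count checks nothing about the deletion.

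Of 10 classes compared, each connexin was highest in the class it is textbook-known for, and the pannexins were spread over all 10. Levels are UMIs of the gene over all UMIs of the class, scaled to counts per 1000000 (CPM), and are compared between classes for 1 gene at a time. At least 5-fold over all other nuclei in both libraries was reached by 5 of the 8 members: Gja1 and Gjb6 in astrocytes, Gjb1 and Gjc3 in oligodendrocytes, and Gjc1 in the vascular class. The share of all genes with at least 50 UMIs that did so was 5.27% in astrocytes, 4.09% in oligodendrocytes and 3.01% in the vascular class. In the classes without such a member it was 2.93% in oligodendrocyte precursors, 7.82% in microglia, 0.715% in granule, 0.173% in CA1, 0.312% in CA3, 0.491% in subiculum and 1.12% in GABAergic neurons. Gjd2 in GABAergic interneurons reached 7.41-fold in the male and 2.90-fold in the female library, but sub-clusters without an interneuron name held 945916 of the 6229839 male and 4192262 of the 8146249 female UMIs of that class. Gjc3 in oligodendrocyte precursors reached 10.0-fold and 4.31-fold. Neither pannexin reached 5-fold in any of the 10 classes in either library.

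**Figure D1:**
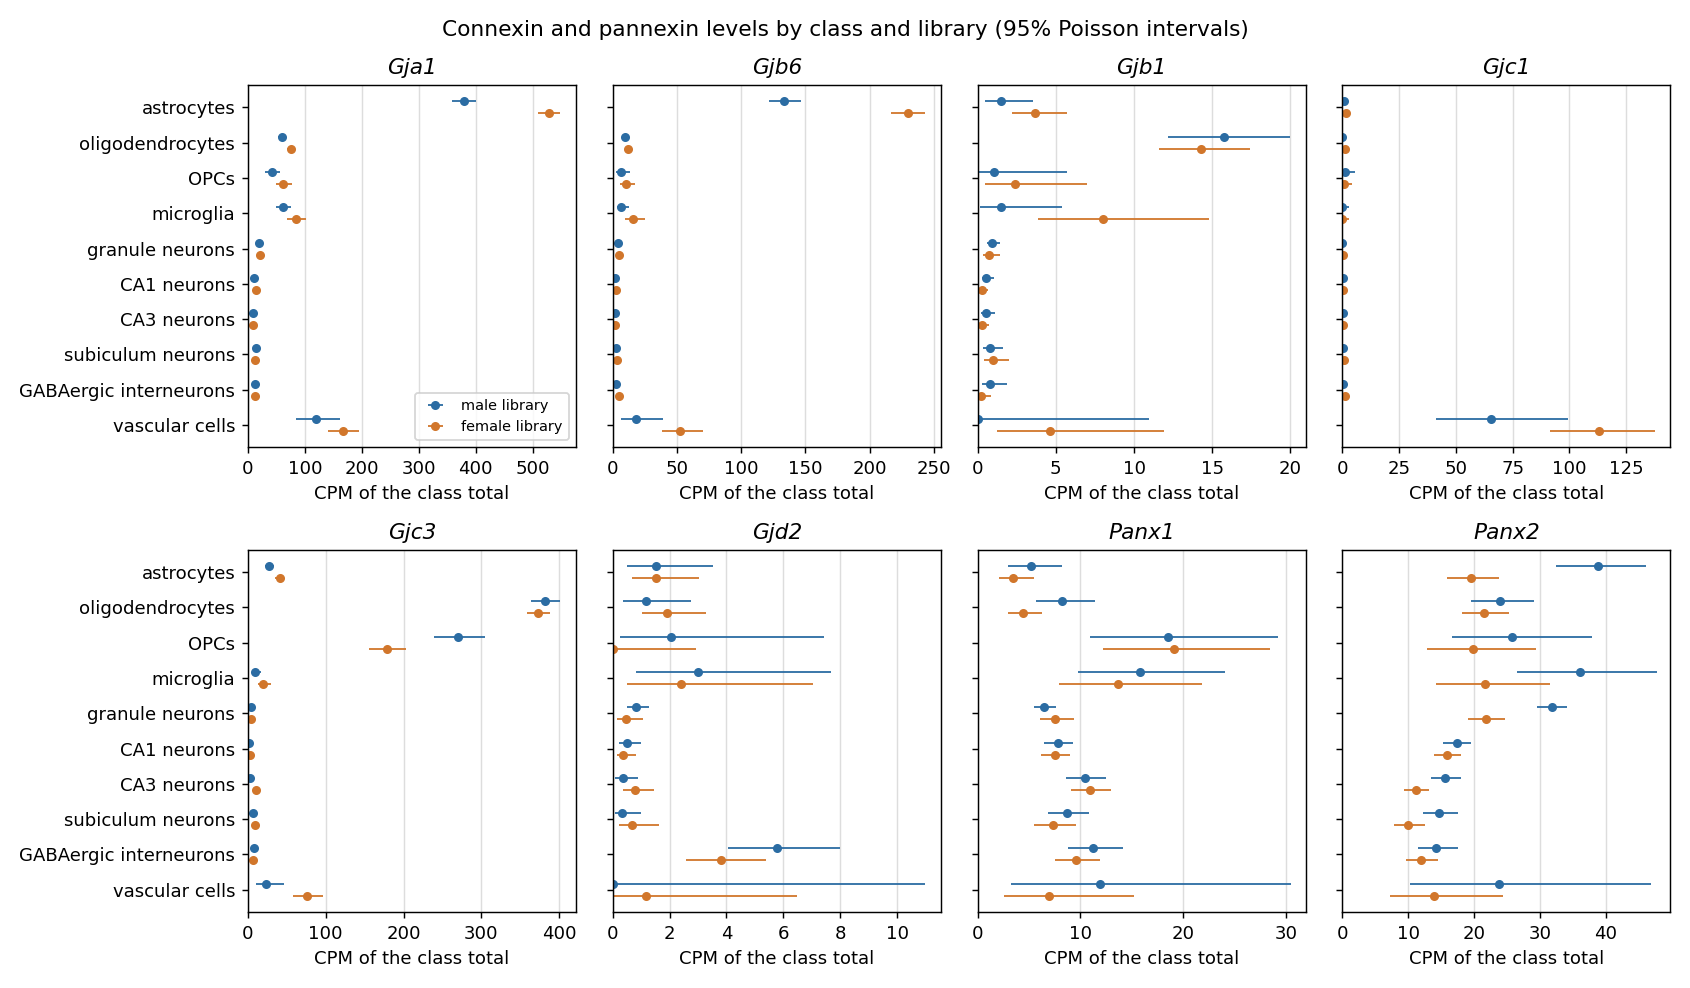
Levels of the 8 members in 10 classes, as CPM of the class total on the horizontal axis, with 1 point per library (blue male, orange female) and bars for 95% Poisson intervals. OPCs are oligodendrocyte precursors, and each panel has its own scale. Gja1 reached 379 CPM in male and 528 CPM in female astrocytes, Gjc3 382 and 373 CPM in oligodendrocytes, and Panx2 lay between 9.96 and 38.8 CPM in all 10 classes.

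Gja1 (ENSMUSG00000050953; mm10 chromosome 10, 56377330 to 56402513, plus strand), the main gap junction gene of astrocytes, had 1249 UMIs in 1001 male astrocytes and 2753 UMIs in 1476 female astrocytes. That is 379 CPM (358 to 400) for males and 528 CPM (509 to 549) for females, and the intervals do not overlap. The astrocyte level was 18.3 times that of all other nuclei in the male library (17 to 19.8) and 14.6 times in the female library (13.8 to 15.3). Astrocytes made up 7.26% of male and 8.67% of female nuclei and held 44.7% and 48.0% of the Gja1 UMIs. The unnamed clusters, which count among the other nuclei, held 4.51% of the male and 20.2% of the female Gja1 UMIs. At least 1 Gja1 UMI was seen in 64.4% of male astrocytes (61.4 to 67.4) and in 74.8% of female astrocytes (72.5 to 77.0), at median depths of 2806 and 3049 UMIs. Thinning to 1000 UMIs per nucleus, with 2 male and 4 female astrocytes too shallow to enter, gave shares of 30.7% and 38.7%. CA1 neurons, which should lack the gene, had a UMI in 9.27% of male and 13% of female nuclei at median depths of 8371 and 9067 UMIs, and in 1.34% and 1.40% after thinning.

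The order of the Gja1 levels was the same at the top in both libraries. Astrocytes were followed by the vascular class at 119 and 166 CPM, and these places were apart beyond their counting intervals. Next came microglia at 61.6 and 84.3 CPM, oligodendrocytes at 59.4 and 76.0 CPM and oligodendrocyte precursors at 42.1 and 62.1 CPM, each neighbour overlapping the next. Granule neurons of the dentate gyrus stood at 20.2 and 20.9 CPM, above all other neurons. CA1, subiculum and GABAergic neurons, between 10.8 and 13.8 CPM, did not differ beyond their intervals from their neighbours in the order, and CA3 neurons were lowest at 8.42 and 8.39 CPM.

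Gjb6 (ENSMUSG00000040055; chromosome 14, 57123303 to 57133611, minus strand), the second astrocytic connexin gene, had 441 male and 1198 female astrocyte UMIs. Its level was 134 CPM (122 to 147) in male and 230 CPM (217 to 243) in female astrocytes, which do not overlap. It was more concentrated in astrocytes than Gja1, at 32.7 times the level of all other nuclei in the male library (28.2 to 37.9) and 26.5 times in the female library (24.1 to 29.1). Both intervals lie above the Gja1 interval of the same library. Astrocytes held 59.0% and 62.7% of its UMIs, and the unnamed clusters 4.15% and 15.2%. The share of astrocytes with a UMI was 32.3% (29.4 to 35.3) and 51.4% (48.8 to 53.9), and 11.5% and 19.7% at 1000 UMIs per nucleus. In CA1 neurons the Gjb6 level was 2.13 and 2.29 CPM. Its order below astrocytes was the vascular class at 17.9 and 52.4 CPM, which in the male library overlapped the next, then oligodendrocytes, microglia and precursors between 6.17 and 16.1 CPM with overlapping intervals, and neurons at 5.16 CPM or less.

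Both astrocytic connexins were lower in the male library, Gjb6 more so than Gja1. The male to female ratio in astrocytes was 0.717 for Gja1 (0.670 to 0.767) and 0.582 for Gjb6 (0.520 to 0.649). Those intervals do not overlap, and there were 2.83 Gja1 UMIs per Gjb6 UMI in male (2.54 to 3.16) and 2.30 in female astrocytes (2.15 to 2.46). Over the 11884 genes with at least 50 UMIs in astrocytes the median ratio was 1.05. The 8 astrocyte markers together stood at 12269 CPM in male and 13998 CPM in female astrocytes, and the median mitochondrial share was 1.54% and 1.78%. Their part in the connexin ratios was not tested. Under a stricter filter (1000 genes, 1% mitochondrial UMIs) the Gjb6 ratio was 0.669, inside 1.5-fold.

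At 1000 UMIs per nucleus, no difference in Gjb6 detection between astrocytes with and without a Gja1 UMI was detectable. Of male astrocytes with a Gja1 UMI, 12.4% had a Gjb6 UMI (8.91 to 16.6), against 11.1% of those without (8.88 to 13.7). In females both shares were 19.7%, with intervals of 16.5 to 23.2 and 17.2 to 22.5. Both genes were seen in 3.80% of male and 7.61% of female astrocytes, and neither in 61.6% and 49.3%. Gja1 and Panx1 were seen together in 2 male and 3 female astrocytes.

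Outside astrocytes and meningeal fibroblasts, Gja1 lay within the range of the 8 astrocyte markers in all 11 classes compared. As a share of the astrocyte level, Gja1 in oligodendrocytes was 15.7% in males and 14.4% in females, where the 8 markers had medians of 14.9% and 12.8%. Microglia gave 16.3% and 15.96% for Gja1 against marker medians of 15.6% and 15.1%. Granule neurons gave 5.32% and 3.96% against 6.01% and 4.33%, and CA1 neurons 2.86% and 2.61% against 2.67% and 2.40%. Gjb6 stood below those medians in all 4 of these classes, for example at 7.19% and 5.25% in oligodendrocytes. The source of these levels was not tested.

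Meningeal fibroblasts were the class, of the 12 compared, where both astrocytic connexins stood above all 8 astrocyte markers. Gja1 reached 263 CPM in 33 male nuclei (191 to 352, 44 UMIs) and 309 CPM in 81 female nuclei (256 to 370, 119 UMIs). Gjb6 reached 131 CPM (82.3 to 199) and 127 CPM (94.1 to 168) from 22 and 49 UMIs. Relative to the astrocyte level this was 69.3% and 58.5% for Gja1 and 98.1% and 55.3% for Gjb6, while the highest marker stood at 66.6% and 44.9%. The male nuclei are few, and the male Gja1 interval reaches below that marker. The Gjb6 intervals reach below it in both libraries, so for Gjb6 the place above all 8 markers lies within counting error. Another connexin known from the leptomeninges, Gjb2 (Cx26), also had its highest level there, at 47.7 CPM from 8 male UMIs (20.6 to 94.1) and 13 CPM from 5 female UMIs (4.22 to 30.3). In pericytes and smooth muscle cells, by contrast, Gja1 lay at 30.8% and 35.3% of its astrocyte level, within the marker range, and in endothelial cells at 32.5% and 29.7%.

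**Figure D2:**
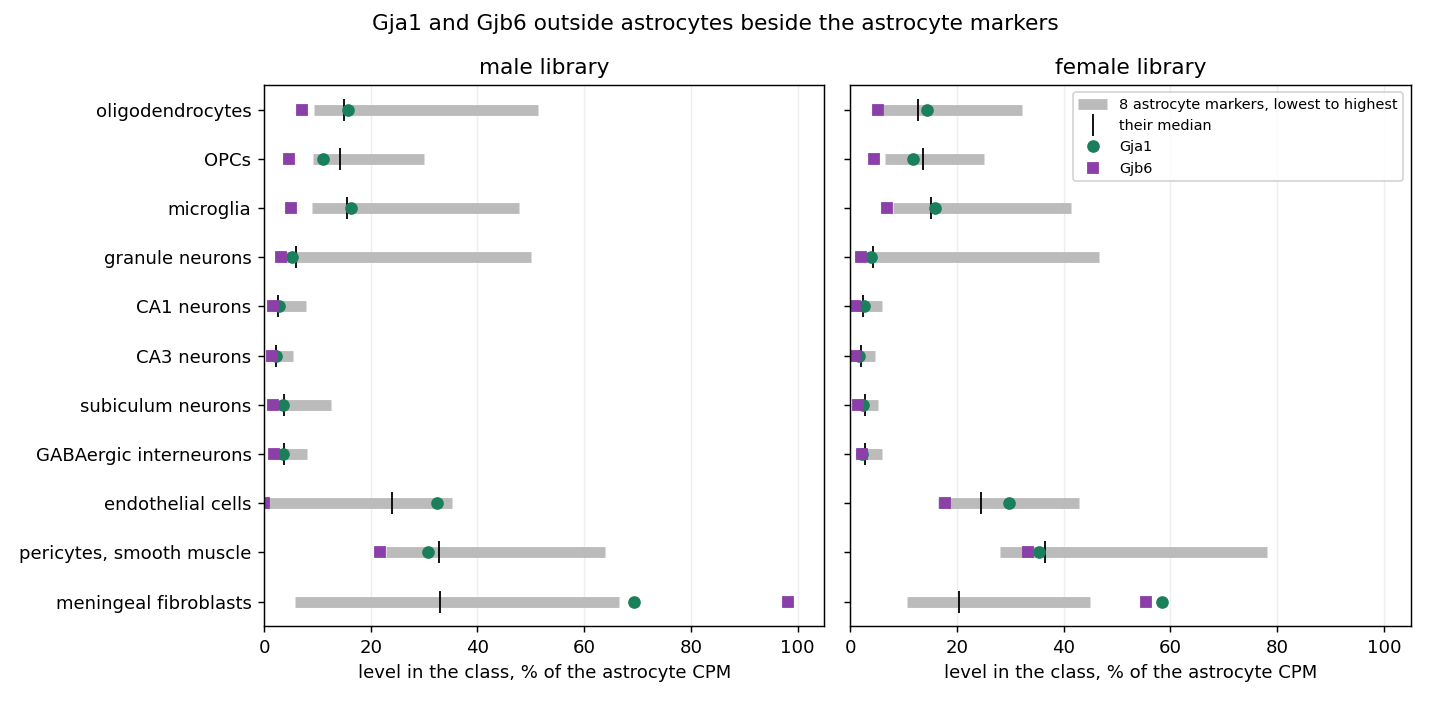
Levels of Gja1 (circles) and Gjb6 (squares) outside astrocytes, in percent of their astrocyte CPM on the horizontal axis, in the male (left) and female (right) library. Grey bars span the 8 astrocyte markers and the black tick is their median. Gja1 lies within the marker range in every class shown but meningeal fibroblasts, where it stands at 69.3% and 58.5% and Gjb6 at 98.1% and 55.3%.

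Gjc3 (ENSMUSG00000056966; chromosome 5, 137953461 to 137963098, minus strand), whose product lies in the myelin-forming cell, had 1629 UMIs in 2345 male and 2534 UMIs in 3583 female oligodendrocytes. The levels were 382 CPM (364 to 401) and 373 CPM (359 to 388), which overlap, and the male to female ratio was 1.02 (0.962 to 1.09). The share of nuclei with a UMI was 45.2% in each library, and 29.3% and 29.4% at 1000 UMIs. Most male oligodendrocytes fell in cluster 17 (2227 nuclei) and most female ones in cluster 18 (3389 nuclei). Within cluster 18 the levels were 393 and 378 CPM, and within cluster 17 they were 382 CPM in the male and 284 CPM (231 to 344) in the 194 female nuclei.

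Oligodendrocyte precursors, the proliferating cells that give rise to oligodendrocytes, came next for Gjc3. They stood at 270 CPM (239 to 305, 263 UMIs) in 341 male nuclei and 178 CPM (156 to 203, 224 UMIs) in 428 female nuclei, without overlap. The ratio was 1.52 (1.26 to 1.82), and the share with a UMI 44.9% and 36.9%. Relative to oligodendrocytes this was 70.7% and 47.8%, whereas the 8 oligodendrocyte markers had a median of 9.17% and 11.1% in precursors and a highest value of 22.3% and 35.5%. Gjc3 thus lay above all 8 of those markers in precursors of both libraries. Gjb1 in precursors was at 6.54% and 16.7% of its oligodendrocyte level, from 1 and 3 UMIs.

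Some other classes carried Gjc3 unevenly between their clusters. In astrocytes it stood at 27.3 and 40.9 CPM, but cluster 22, with 52 male and 135 female nuclei, held 158 CPM in each library while the main astrocyte cluster 16 held 16.1 and 19.7 CPM. The 8 oligodendrocyte markers, all detected, summed to 5647 and 7030 CPM in cluster 22 against 2648 and 3152 CPM in cluster 16, and 38.9% of the nuclei first placed in cluster 22 were called doublets and removed. In CA3 neurons the level was 3.42 CPM in males and 10.2 CPM in females, a ratio of 0.336 (0.228 to 0.486). There the cluster led by Gm32647, with 107 male and 213 female nuclei, held 10.3 and 23.5 CPM and the other CA3 cluster 2.01 and 3.03 CPM. Of the nuclei first placed in the Gm32647 cluster 21.4% were called doublets and removed, against 5.35% in the other CA3 cluster. Without the Gm32647 cluster the ratio was 0.663, from 19 and 23 UMIs, and the 8 oligodendrocyte markers, all detected, summed to 526 and 838 CPM in that cluster and to 361 and 484 CPM in the other. The part of oligodendrocyte RNA in these levels was not tested.

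Gjb1 (ENSMUSG00000047797; chromosome X, 101376378 to 101385629, plus strand), the other oligodendrocyte connexin, was sparse. It had 67 male and 97 female oligodendrocyte UMIs, or 15.7 CPM (12.2 to 19.97) and 14.3 CPM (11.6 to 17.4), which overlap, with a ratio of 1.1 (0.794 to 1.52). Oligodendrocytes stood 17.9-fold and 12.2-fold above all other nuclei and held 50.8% of its UMIs in each library. In the male library the other 9 classes lay at 1.52 CPM or less. In the female library microglia came next at 8.03 CPM from 10 UMIs, which overlaps the oligodendrocyte interval. At 1000 UMIs per nucleus Gjb1 was seen in 3.00% of male oligodendrocytes with a Gjc3 UMI (1.84 to 4.59) and 1.24% of those without (0.760 to 1.91), with overlapping intervals, and in 1.29% and 1.24% of female ones.

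Gjc1 (ENSMUSG00000034520; chromosome 11, 102799579 to 102819700, minus strand) was highest in vascular cells, at 340 times the level of all other nuclei in males (168 to 704) and 82.8 times in females (62.6 to 109). The vascular class made up 0.464% and 1.43% of nuclei and held 59.5% and 45.1% of the Gjc1 UMIs. The class, endothelial cells with pericytes and smooth muscle cells, held 22 UMIs in 64 male nuclei and 97 UMIs in 243 female nuclei. These give 65.5 CPM (41.1 to 99.2) and 113 CPM (91.5 to 138), with overlapping intervals and a ratio of 0.581 (0.348 to 0.930). The order of its parts differed between libraries. Endothelial cells stood at 115 CPM (64.5 to 190) in males and 80.2 CPM (58.9 to 107) in females, and pericytes and smooth muscle cells at 34.0 CPM (13.7 to 70.1) and 183 CPM (136 to 241). In endothelial cells alone the ratio was 1.44, opposite in direction to the whole class, while pericytes and smooth muscle cells were lower in the male library. The parts held 26 male and 161 female endothelial nuclei, and 38 male and 82 female pericyte and smooth muscle nuclei. The part of this make-up in the class ratio was not tested. Meningeal fibroblasts had 0 male UMIs, which allows up to 17.9 CPM, and 2 female UMIs. Microglia had 0 UMIs in both libraries, and CA1, CA3, granule, subiculum and GABAergic neurons lay at 0.982 CPM or less.

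Thalamic or habenular neurons, a cluster of 148 nuclei found in the female library alone, had the highest Gjc1 level of the named neurons. They held 37 UMIs, 17.2% of the female total, or 19.5 CPM (13.7 to 26.8), in 16.2% of nuclei at a median depth of 10536 UMIs. Their 8 endothelial markers summed to 43.1 CPM, with Cdh5 at 0, against 2740 CPM in female endothelial cells. The 8 pericyte and smooth muscle markers summed to 21.6 CPM, with Kcnj8, Acta2 and Myh11 at 0. In the unnamed clusters Gjc1 had 0 male and 41 female UMIs.

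Gjd2 (ENSMUSG00000068615; chromosome 2, 114009601 to 114013619, minus strand), the gene of the neuronal electrical synapse, was of the 10 classes highest in GABAergic interneurons. These held 36 UMIs in 649 male and 31 UMIs in 658 female nuclei, or 5.78 CPM (4.05 to 8.0) and 3.81 CPM (2.59 to 5.4), which overlap. This class includes the sub-clusters without an interneuron name, described below, which weigh more in the female library. They held 39.1% of the male and 23.0% of the female Gjd2 UMIs. The unnamed clusters, outside the 10 classes, held 6 of 92 male UMIs (6.52%) and 50 of 135 female UMIs (37.0%), so more than the interneurons in the female library. The excitatory classes together stood at 0.571 CPM (0.395 to 0.798) and 0.550 CPM (0.356 to 0.812), so the interneuron interval was above the excitatory one in both libraries. A UMI was seen in 5.24% (3.65 to 7.24) and 4.71% (3.22 to 6.62) of interneurons. After thinning to 1000 UMIs 4 UMIs remained in each library, near the limit of detection. Outside neurons, the intervals of microglia, oligodendrocyte precursors and vascular cells overlapped that of interneurons in both libraries, from 4 or fewer UMIs each. In the female library those of oligodendrocytes (1.02 to 3.27, 13 UMIs) and astrocytes (0.663 to 3.03, 8 UMIs) did so too. The start of Gjd2 overlaps A530058N18Rik on the opposite strand, which had 1042 UMIs in GABAergic interneurons, and the use of strand in counting is not given in the sources used here. Whether any reads of this pair were counted for the wrong gene therefore cannot be told.

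Among interneuron types, the Pvalb-like sub-clusters had the highest Gjd2 level in both libraries, but the intervals overlap with those of other types. They held 16 male UMIs, 11.1 CPM (6.34 to 18), and 9 female UMIs, 8.62 CPM (3.94 to 16.4). Vip or Cck-like interneurons held 5.61 and 6.46 CPM, Sst-like ones 4.07 and 3.11 CPM, and Lamp5-like ones 1.20 and 5.65 CPM. Sub-clusters without a name, 59 male and 267 female nuclei led by Tafa1, Mobp or 2610307P16Rik, stood at 4.23 and 1.67 CPM. The one led by Tafa1 (51 male, 158 female nuclei) shared the leading genes Gm2164, 1700007F19Rik, 4921539H07Rik and Npr3 with the CA1 cluster. The one led by Mobp (3 and 89 nuclei) also had the oligodendrocyte marker Mbp among its leading genes. Levels of the whole class are therefore not those of named interneurons alone. With the named sub-clusters alone the male to female ratio was 0.998, against 1.52 (0.913 to 2.54) in the whole class.

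**Figure D3:**
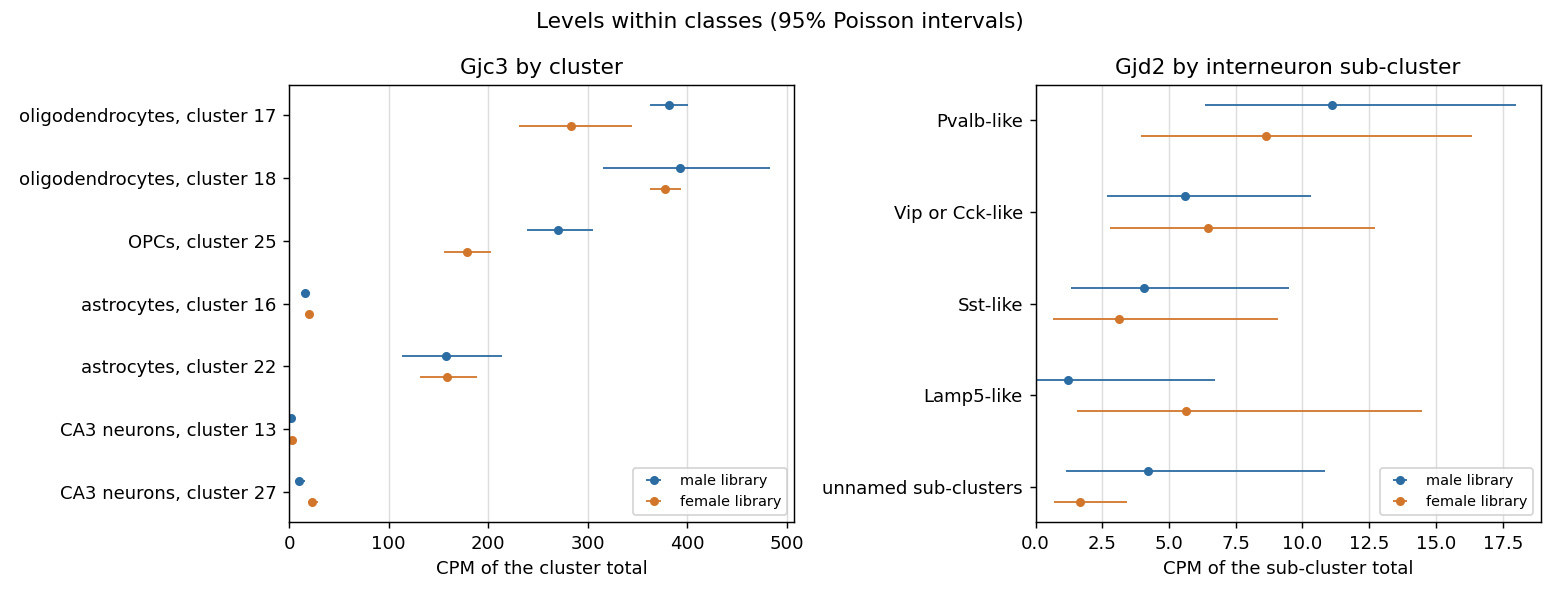
Left, Gjc3 by cluster, and right, Gjd2 by interneuron sub-cluster, as CPM of the cluster or sub-cluster total, with 1 point per library and 95% Poisson intervals. Gjc3 stands at 158 CPM in astrocyte cluster 22 of both libraries and at 16.1 and 19.7 CPM in cluster 16, and Gjd2 is highest in Pvalb-like interneurons at 11.1 and 8.62 CPM with wide intervals.

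Panx1 (ENSMUSG00000031934; chromosome 9, 15002128 to 15045478, minus strand) was low and broad. Oligodendrocyte precursors were highest in both libraries, at 18.5 CPM (18 UMIs) and 19.1 CPM (24 UMIs), followed by microglia at 15.8 and 13.7 CPM with overlapping intervals. The precursor level was 2.22 times that of all other nuclei in the male (1.31 to 3.53) and 2.36 times in the female library (1.5 to 3.54). Among neurons, GABAergic cells were at 11.2 and 9.57 CPM, CA3 neurons at 10.44 and 10.96 CPM, CA1 neurons at 7.82 and 7.50 CPM and granule neurons at 6.49 and 7.59 CPM, and neighbours in the order overlapped. CA3 neurons exceeded all other nuclei 1.28-fold (1.04 to 1.57) and 1.40-fold (1.15 to 1.70). Astrocytes were the lowest class in both libraries, at 5.16 CPM from 17 UMIs and 3.45 CPM from 18 UMIs, or 0.599 and 0.404 times the level elsewhere.

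Panx2 (ENSMUSG00000058441; chromosome 15, 89059734 to 89073567, plus strand), the pannexin known for its presence in neurons, gave the larger count. In granule neurons it had 745 male UMIs, 31.8 CPM (29.6 to 34.2), and 235 female UMIs, 21.7 CPM (19.0 to 24.7). Those intervals do not overlap, and the ratio was 1.46 (1.26 to 1.70). At 1000 UMIs per nucleus the ratio was 1.20 from 126 and 45 UMIs. Granule cluster 2, led by C1ql2, C1ql3 and Jun, held 43.6 and 33.3 CPM and cluster 1 26.7 and 21.2 CPM, and cluster 2 had 1022 male but 99 female nuclei. CA1 neurons at 17.3 and 15.9 CPM, CA3 neurons at 15.6 and 11.1 CPM, subiculum neurons at 14.7 and 9.96 CPM and GABAergic neurons at 14.3 and 11.9 CPM formed the lower end of the order.

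Glia carried Panx2 at levels near that of granule neurons. Astrocytes were at 38.8 CPM (32.4 to 46.2) in males and 19.6 CPM (15.96 to 23.8) in females, a ratio of 1.98 (1.52 to 2.60), and microglia at 36.1 and 21.7 CPM, a ratio of 1.66 (1.02 to 2.77). Oligodendrocytes at 23.9 and 21.5 CPM overlapped, with a ratio of 1.11 (0.856 to 1.44). In each of the 9 classes that met the minimum of UMIs, Panx2 was higher in the male library. The median ratio of all genes was itself 1.05 to 1.11 there, and relative to it Panx2 in CA1 neurons turned from 1.09 to 0.994. Its antisense neighbour 1810021B22Rik, which overlaps it on the opposite strand, had 236 UMIs in granule neurons and 15 in astrocytes. Whether any of its reads were counted for Panx2 cannot be told without the strand.

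Over all 8 members and 10 classes there were 80 pairs, of which 43 had at least 50 UMIs over both libraries. Among these, 5 were at least 1.5-fold higher in the male library, 7 at least 1.5-fold higher in the female library and 31 neither. Relative to the median gene of each class the counts were 3 and 10. The background is large: of all genes with at least 50 UMIs in astrocytes, 12.5% passed the same fold toward the male and 5.97% toward the female library. Toward the male library the share was 13.7% in oligodendrocytes, 8.66% in precursors, 12% in microglia, 11.1% in granule, 8.85% in CA1, 9.18% in CA3, 13.8% in subiculum and 9.45% in GABAergic neurons, and 11.5% in vascular cells. Toward the female library it was 4.95% in oligodendrocytes, 5.01% in precursors, 6.23% in microglia, 3.5% in granule, 2.96% in CA1, 3.18% in CA3, 4.57% in subiculum and 4.87% in GABAergic neurons, and 15.2% in vascular cells. The pairs higher in the male library were Panx2 in astrocytes and microglia, Gjc3 in precursors, Panx1 in oligodendrocytes and Gjd2 in GABAergic interneurons. Those higher in the female library were Gjb6 in astrocytes, GABAergic interneurons and vascular cells, Gjc3 in CA3 neurons, subiculum neurons and vascular cells, and Gjc1 in vascular cells. The subiculum class joined clusters led by Gm42705 (252 male, 257 female nuclei), Gm49906 (479 and 51) and Vwc2l (339 and 231). Its mix thus differed between libraries, and the part of this in its ratios was not tested.

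Vascular cells showed the lowest ratios, with 3 of the 4 members that met the minimum past the fold toward the female library and a median of 0.461 against 0.989 over 5075 genes. Gjb6 stood at 17.9 CPM in male and 52.4 CPM in female vascular cells, a ratio of 0.341 (0.119 to 0.803), and Gjc3 at 23.8 and 75.6 CPM, a ratio of 0.315 (0.131 to 0.658), from 6 and 8 male UMIs. Oligodendrocyte markers summed higher in the female library in both parts of the class, and the astrocyte marker sums differed less. In pericytes and smooth muscle cells the 8 oligodendrocyte markers, all detected, summed to 1877 CPM in males and 4130 CPM in females, and the 8 astrocyte markers to 4479 and 5399 CPM. In endothelial cells they were 2260 and 3206 CPM for oligodendrocytes and 3151 and 3211 CPM for astrocytes, where male Aldh1l1 was at 0. Their part in the vascular ratios was not tested. Panx1 in oligodendrocytes, at 8.21 and 4.42 CPM, had a ratio of 1.86 (1.11 to 3.14) from 35 and 30 UMIs. Over 6 alternatives it ranged from 1.05 to 1.88 and was past the fold in 3, and the lowest value, in the largest cluster alone, rests on 1 male and 27 female UMIs. Gjb6 in GABAergic interneurons, unnamed sub-clusters included, stood at 2.41 and 5.16 CPM and had a ratio of 0.467 (0.241 to 0.860). Over 8 alternatives it ranged from 0, at 1000 UMIs per nucleus with 0 male and 7 female UMIs, to 0.729, and was past the fold in 4.

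**Figure D4:**
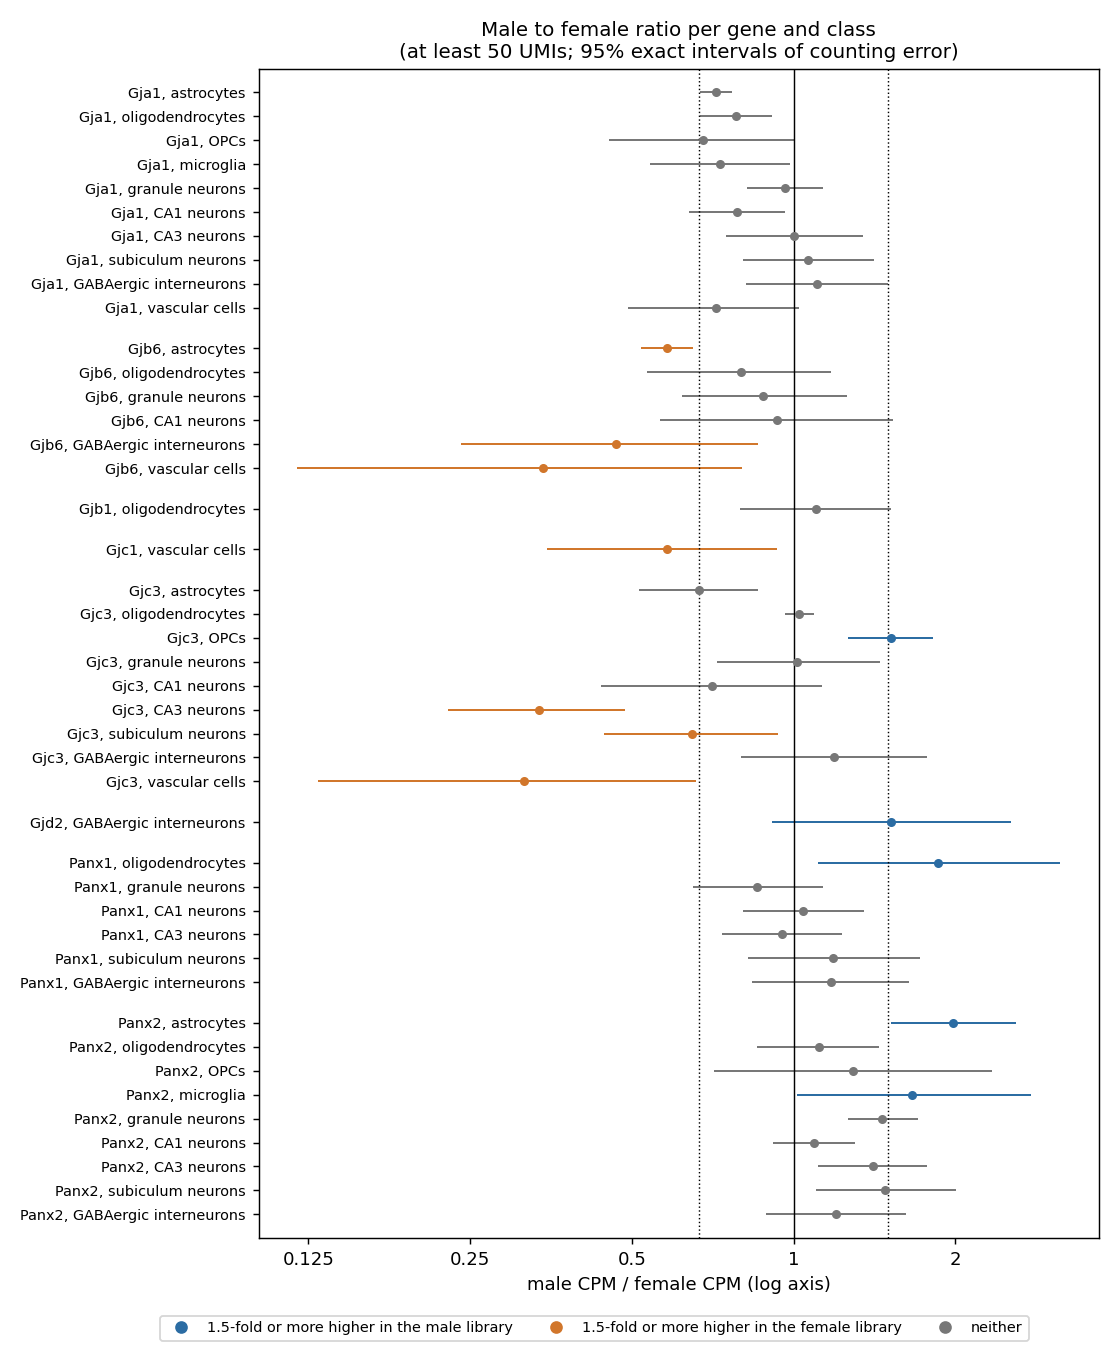
Male to female CPM ratio on a log axis for the 43 gene and class pairs with at least 50 UMIs, with exact 95% intervals of counting error. Dotted lines mark 1.5-fold either way. The 5 blue pairs are past it toward the male and the 7 orange pairs toward the female library; Gjc3 in oligodendrocytes lies at 1.02, and in precursors at 1.52.

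Genes that work with connexins were followed by list in astrocytes, where 14 scaffolds and partners of junctions gave 11 with at least 50 UMIs. Their median ratio was 0.987, with 1 past the fold toward the male and 0 toward the female library. The named genes of that list stood furthest from 1 over all 10 classes. They were the cell adhesion gene Cdh2 in oligodendrocytes at 460 and 869 CPM, a ratio of 0.530 (0.503 to 0.558), the drebrin gene Dbn1 in precursors at 90.5 and 45.4 CPM, 1.99 (1.41 to 2.83), and the catenin gene Ctnna1 in vascular cells at 68.5 and 129 CPM, 0.530 (0.323 to 0.837). All 11 kinases known to act on Cx43 met the minimum in astrocytes. Their median was 1.35, with 4 past the fold toward the male and 0 toward the female library, and the 3 furthest from 1 were Mapk7 at 2.30 (1.45 to 3.70), Akt1 at 1.86 (1.53 to 2.26) and Mapk3 at 1.82 (1.40 to 2.37). Against a median of 1.05 over all astrocyte genes and 12.5% past the fold, those are descriptions of 2 libraries.

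Channels and receptors that share tasks with connexins had list medians under 1. All 9 genes of astrocytic ion and water balance met the minimum, with a median of 0.918 and 2 past the fold toward the female library, where the median over all astrocyte genes was 1.05 and 5.97% were past it. These were the potassium channel gene Kcnj10 at 82.8 and 124.6 CPM, a ratio of 0.665 (0.575 to 0.767), and the cotransporter gene Slc12a2 at 0.660 (0.561 to 0.774), while the chloride channel gene Clcn2 had 1.30 (0.989 to 1.72). Of 14 other large-pore channel genes 8 met the minimum, with a median of 0.889 and none past the fold in either direction. The volume-regulated channel genes Lrrc8c and Lrrc8a had ratios of 0.692 and 0.740, and Ttyh2 0.772. Of 23 genes of purinergic signalling, 10 met the minimum. Their median was 0.892, and 3 were past the fold toward the female library, against the same 5.97%. They were the receptor genes P2rx6 at 0.494 (0.257 to 0.897), Adora2b at 0.577 (0.341 to 0.943) and P2rx4 at 0.663 (0.470 to 0.923).

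Other genes of the family with at least 50 UMIs in all kept nuclei included Gjb2, Gja3, Gja4, Gja5 and Gja6. Gja4 (Cx37), a vessel connexin, was highest in pericytes and smooth muscle cells, at 40.2 CPM from 11 female UMIs (20.1 to 72.0) and 4.86 CPM from 1 male UMI. Gja3, Gja5 and Gja6 had 29, 40 and 27 male and 47, 60 and 49 female UMIs in all kept nuclei. At most 2 of these lay in the class of their highest level, too few to name a main class. The classes of their other UMIs are not given here.

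Genes whose pattern over classes was most like that of a member were named by Pearson correlation of log2(CPM + 5) over 18 profiles, 9 classes in 2 libraries, which share libraries and depth, so it is a description. For Gja1 these were Sdc4 (r = 0.996), the water channel gene Aqp4 (0.990) and the receptor gene Fgfr3 (0.989), of which Aqp4 and Fgfr3 also served as astrocyte markers. For Gjb6 they were Thbs4 (0.989), Osmr (0.988) and Prdm16os (0.986). Gjc3 was closest to Gm10863 (0.987), Gal3st1 (0.984), an enzyme of myelin lipid synthesis, and Nkd1 (0.981). The pannexins had looser partners, with Sdk1 (0.887), Cask (0.873) and Prep (0.861) for Panx1 and Prr7 (0.936), Bhlhe22 (0.926) and Pnmal2 (0.925) for Panx2.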

How the data were processed

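Single-nucleus RNA of 2 libraries (10x 3' chemistry v3.1, target of 10000 nuclei each) was turned by the authors into raw UMI counts per gene and barcode, and the file headers name Cell Ranger 7.0.1. Bcl2fastq 2.20.0.422 and the genome build mm10 are named per the submitters' processing notes. Whether intronic reads and strand were used in counting is not given in the sources used here.

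From these counts, nuclei were kept (16034 male, 19251 female) if they had 500 genes or more and a mitochondrial share of 5% or less. Scrublet in scanpy 1.11.5 called 1534 male doublets. Its automatic threshold called 0 female ones, so the female threshold was set to the top 8% of scores, which marked 1445 nuclei. Leiden clustering (resolution 1, 40 components, 15 neighbours, 3000 variable genes) gave 34 clusters, of which 6 with over 40% doublets were removed. All 23 connexin and pannexin genes and 20 others (Stra8, sex-linked and mitochondrial genes) were left out of it. Naming needed at least 3 of 8 markers, and its details, Rorb left out among them, were set after the clusters were seen.

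UMIs were summed per class and library and scaled to CPM here. Levels have exact Poisson, shares Clopper-Pearson and ratios exact conditional binomial intervals at 95% (scipy 1.17.1). These cover counting error only. A pair was called past at 1.5-fold with at least 50 UMIs, and the calculation was tested on simulated data. Named genes were all 8 members, the 3 of each list furthest from a ratio of 1 among those with at least 50 UMIs, other family genes with at least 50 UMIs and the 3 closest profiles. The members and lists were chosen with earlier results of these data known. Gene positions are from GENCODE vM21 (mm10), and promoter windows from RefSeq matched 6 of 8 members. A result on another gene of the family is not reported here.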

Additional observations from a re-analysis of the deposited data

Results flagged for a closer look

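Gjc3 differed in direction between classes in the same male to female comparison. Its ratio was 1.52 in oligodendrocyte precursors, but 0.336 in CA3 neurons, 0.647 in subiculum neurons and 0.315 in vascular cells. Over the alternatives the precursor ratio ranged from 1.28 to 1.57, past 1.5-fold in 4 of 7 and at 1.44 relative to the median gene, and the subiculum ratio from 0.584 to 0.845, past it in 3 of 7. The CA3 ratio was past it in 5 of 8 and the vascular ratio in 4 of 7. With 1 library per sex, the difference between these classes was not tested. The values of the oligodendrocyte markers in the CA3 and vascular clusters stand beside these ratios above, and their part was not tested.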

How the results depend on the processing

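No paired analysis was possible because each sex has 1 library and the labels give no shared replicate numbers. With 1 library a group, leaving out a replicate was not possible either. The 5 pairs higher in the male library became 3 with called doublets kept, with 5 CPM added to each level or relative to the median gene, 1 under a stricter filter (1000 genes or more, 1% mitochondrial UMIs or less), 1 at 1000 UMIs per nucleus and 13 with no minimum of UMIs. The 7 higher in the female library became 10 relative to the median gene (so 3 against 10 in place of 5 against 7), 4 under that filter, 1 at 1000 UMIs, 2 in the largest cluster of each class alone and 24 with no minimum. Under the stricter filter the Gjb6 ratio in astrocytes was 0.669 and Gjc1 in vascular cells turned to 1.14, from 12 and 11 UMIs; in the largest vascular cluster alone it was 1.44. Panx2 in granule neurons was 1.20 at 1000 UMIs, Gjc3 in oligodendrocytes 0.938 relative to the median gene, and Gjd2 0.998 in named interneuron sub-clusters alone, an alternative chosen after seeing the data, as was leaving out the Gm32647 cluster. The causes were not tested. Over 7 alternatives Gja1 in astrocytes ranged from 0.684 to 0.760, Gjb6 there from 0.555 to 0.669 and Panx2 there from 1.73 to 3.31, and Gjc3 in precursors from 1.28 to 1.57. Of the other pairs past the fold, Gjc3 in subiculum neurons ranged from 0.584 to 0.845 (past in 3 of 7), in CA3 neurons from 0.306 to 0.663 (5 of 8) and in vascular cells from 0.161 to 0.400 (4 of 7), Panx2 in microglia from 1.45 to 1.69 (4 of 6), Gjb6 in vascular cells from 0 to 0.434 (3 of 7), Gjc1 there from 0.581 as reported to 1.44 (4 of 7) and Gjd2 in interneurons from 0.998 to 2.48 (1 of 8). Some of these were lost through fewer than 50 UMIs. Depth limits Gjb1, Gjc1 and Gjd2 most.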
